A study of Drosophila melanogaster with 9 samples.

Results

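Tiles of the *Drosophila* genome that carried H3K27me3 in S2 cells, but little H3K27me3 and at least 1 active mark in *bam* testis, were examined. Chromosomes 2, 3, 4 and X (arms 2L, 2R, 3L, 3R for the first pair) were divided into 240738 tiles of 500 bp, and 75 of them, 37.5 kb in all, met the rule. Values are densities, in reads per kb per 1000000 kept reads of the library. A tile was chosen when its H3K27me3 density in S2 cells was 14 or more, its H3K36me3 density in S2 cells was under 14, its H3K27me3 density in *bam* testis was under 7, and its H3K4me3 or H3K36me3 density in *bam* testis was 22 or more. These 5 libraries therefore fixed the choice, and their values at the 75 tiles are a description. Pol II in both samples, H3K4me3 in S2 cells and RNA-seq of S2 cells were not used in it.

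S2 cells are an established line from *Drosophila* embryos and are thought to be related to blood cells. The *bam* testes carried the alleles bam1 and bam114-97. Loss of *bag of marbles* keeps germ cells from leaving the stage of dividing spermatogonia, so these testes are filled with undifferentiated germ cells, but they keep the somatic cells of the testis. About 200 pairs of whole testes were pooled for each ChIP, so a density is a mean over both kinds of cell, and fewer cells with a mark and less of the mark per cell cannot be told apart. The testis chromatin was fixed with formaldehyde and sonicated, whereas the S2 cells were taken up in a digestion buffer, so the preparation cannot be told apart from the sample. Each of the 9 libraries is the only one of its kind. No test between samples was possible, and intervals are 95% intervals that cover counting error only.

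H3K27me3 is laid down by Polycomb repressive complex 2 and marks silent developmental genes, often over broad domains. H3K4me3 marks the start of active genes and is made by methyltransferases of the COMPASS family. H3K36me3 is made by a methyltransferase that travels with elongating Pol II and lies over the bodies of transcribed genes. Polycomb domains differ between lineages, so a region repressed in a somatic line can be in use in the germ line. No annotation of the dm3 build was used here, so regions are given by position and not by gene, and no markers of germ cells, somatic testis cells or blood cells could be read.

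The pattern was rare. The S2 conditions alone were met by 46965 tiles (19.5% of all tiles) and the testis conditions alone by 20679 tiles (8.59%). The 75 tiles are 0.1597% of the former and 0.363% of the latter. If both sets of conditions had been independent along the arms, 4034 tiles would have met both. The observed number was 0.0186 times that value. Of the tiles that met the testis conditions, 78.3% had S2 H3K36me3 of 14 or more, compared with 16.1% of all tiles. The S2 conditions exclude such tiles, so the low number is a description and not a test. Of the S2 tiles, 41.8% had an H3K27me3 density of 14 or more in testis as well, and 11.3% had one under 7, compared with 53.7% of all tiles under 7. The opposite pattern, with the roles of S2 cells and testis exchanged, was found in 572 tiles, 7.63 times as many. After thinning of each ChIP library to the shallowest one, 811 tiles had it, beside 141, or 5.75 times as many. Equal limits need not be equally strict in both samples. In tiles that met the testis conditions, mean H3K4me3 and H3K36me3 were 50.6 and 37.0 in S2 cells, but 23.0 and 25.3 in testis. In the other direction, H3K27me3 reached 14 in 19.9% of all tiles in S2 cells and 12.5% in testis. Both ratios therefore describe counts under these limits, and their cause was not tested.

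In S2 cells, H3K27me3 at the 75 tiles ranged from 20 to 53 reads with a median of 24, a density of 14.4 to 38.1 with a median of 17.3. In *bam* testis it ranged from 3 to 13 reads with a median of 11, a density of 1.61 to 6.97 with a median of 5.90. The median over all tiles was 5.76 in S2 cells and 6.97 in testis. The limits of the rule, 14 or more in S2 cells and under 7 in testis, placed each chosen tile above the former median and at or below the latter. The density in S2 cells was between 2.17 and 9.39 times that in testis, with a median of 3.28, and was at least 3 times that in testis in 45 tiles. Many tiles lay close to a limit. In S2 cells, 17 tiles had 20 or 21 reads of H3K27me3, where 20 were needed, and in testis 34 tiles had 12 or 13 reads, where 13 was the most allowed. The active mark was at its limit or 1 read above it in 26 tiles. Just outside the rule, 13 further tiles missed it with 19 reads of H3K27me3 in S2 cells, 13 missed it with 14 reads of H3K27me3 in testis, and 29 missed it by 1 read of an active mark.

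**Figure D1:**
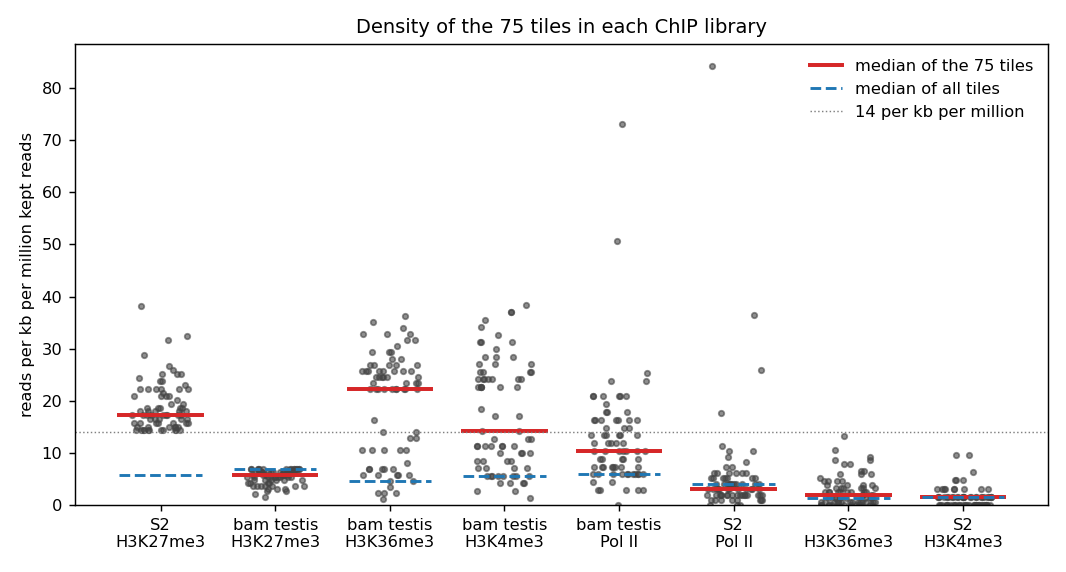
Density, in reads per kb per 1000000 kept reads, of each of the 75 tiles (points) in the 8 ChIP libraries, with the median of the 75 tiles (red line) and of all tiles (blue dashed line). The first 4 libraries and S2 H3K36me3 chose the tiles; in testis Pol II, which did not, the median was 10.4 at the 75 tiles and 5.96 over all tiles, and in S2 Pol II it was 3.12 and 4.16.

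The active mark in testis was H3K36me3 alone in 42 tiles, H3K4me3 alone in 28 and both in 5. Both libraries chose the tiles, and a tile with 1 mark alone has the other under 22 by construction, so these values are a description. Among the 28 tiles chosen by H3K4me3 alone, H3K36me3 reached a density of 14 in 3 (10.7%), compared with 16.3% of all tiles. Among the 42 chosen by H3K36me3 alone, H3K4me3 reached 14 in 5 (11.9%), compared with 10.6% of all tiles. Tiles with H3K36me3 alone had a median H3K36me3 density of 25.8, compared with 7.03 in tiles with H3K4me3 alone. The median H3K4me3 density was 25.6 in tiles with H3K4me3 alone and 8.53 in those with H3K36me3 alone. The tiles with both marks were 2R 19134001 to 19134500, 3L 8203001 to 8203500, 3L 19242001 to 19242500, 3R 5645501 to 5646000 and 3R 9937001 to 9937500, and they were listed after their values were seen.

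**Figure D2:**
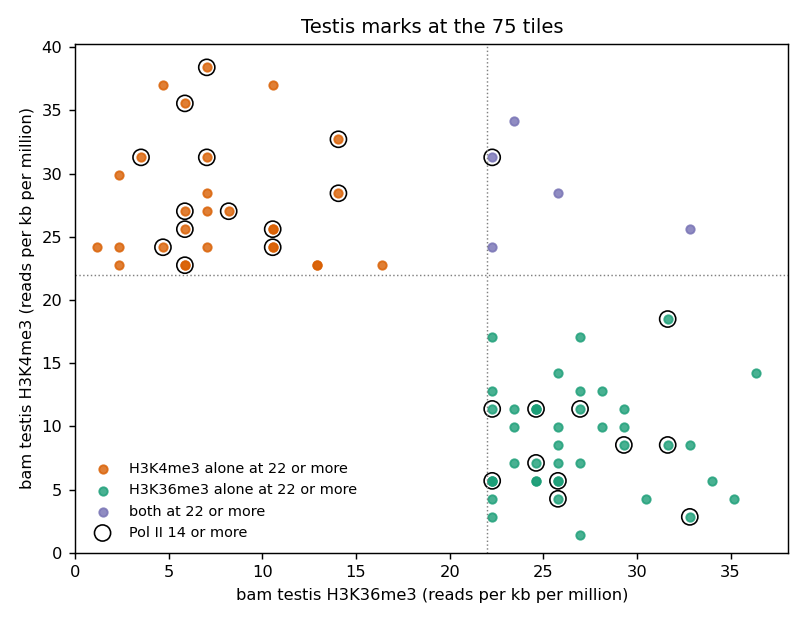
H3K36me3 density (x axis) against H3K4me3 density (y axis) in *bam* testis at the 75 tiles, in reads per kb per 1000000, coloured by the mark that reached 22 (dotted lines). Circles mark the 25 tiles with a testis Pol II density of 14 or more, 13 of the 28 with H3K4me3 alone, 11 of the 42 with H3K36me3 alone and 1 of the 5 with both.

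Pol II in *bam* testis took no part in the choice. A density of 14 or more, or at least 10 reads, was found in 25 of the 75 tiles (33.3%, 23.7 to 44.6), compared with 13.2% of all tiles. The median was 10.4, compared with 5.96 over all tiles, and 56 of the 75 tiles lay above the latter. Among all tiles that met the S2 conditions the share was 3.37% (3.21 to 3.53). It was 3.78% (3.30 to 4.33) in the 5211 tiles with H3K27me3 in S2 cells, under 7 in testis and no active mark there, and 3.25% (3.01 to 3.51) in the 19652 tiles with H3K27me3 of 14 or more in both samples. Active tiles of testis with S2 H3K27me3 under 7, of which there were 20120, reached 50.6% (49.9 to 51.3). H3K4me3 and H3K36me3 are known to accompany transcription, so Pol II at tiles chosen by them is a separate library but not a separate property. At a threshold of 15 reads, where the Poisson p is under 0.001, 5 of the 75 tiles remained (6.67%, 2.88 to 14.7), compared with 5.05% of all tiles and 0.590% of those that met the S2 conditions. The excess over all tiles also depended on how the tiles were chosen. With an active mark of 14 or more in place of 22, 548 tiles were chosen and the share was 12.4%, and with reads of a single strand it was 18.1% and 15.0%.

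The Pol II share in testis was 46.4% (29.5 to 64.2) in tiles with H3K4me3 alone and 26.2% (15.3 to 41.1) in tiles with H3K36me3 alone, intervals that overlap. The highest testis Pol II value, 49 reads (a density of 73.0), was in the tile 2L 1737501 to 1738000. It was followed by 34 reads (50.7) in 2L 15074501 to 15075000. Both were looked up after their values were seen. All other tiles had 17 reads or fewer, and 3R 7953001 to 7953500 had none.

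**Figure D3:**
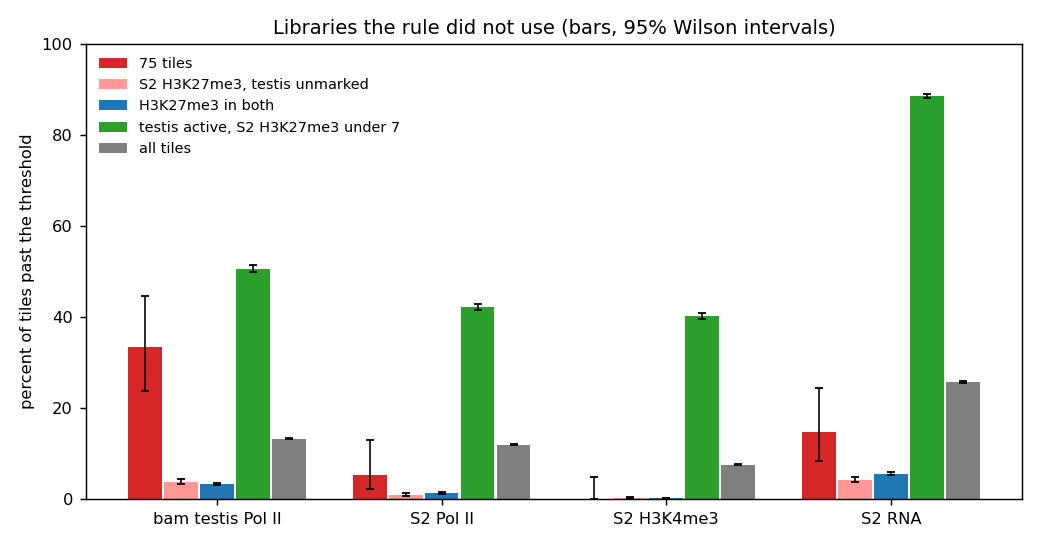
Percent of tiles (y axis) past the threshold in the 4 libraries that the rule did not use, 14 reads per kb per 1000000 for ChIP-seq and 1 for RNA-seq, with 95% Wilson intervals. For the 75 tiles (red) the shares were 33.3%, 5.33%, 0% and 14.7%, compared with 13.2%, 11.9%, 7.46% and 25.6% of all tiles (grey).

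In S2 cells a smaller share of the same tiles than of all tiles was past the threshold in each readout of transcription. The interval for Pol II held the share of all tiles. The S2 conditions alone already gave low shares, as given below. H3K4me3 reached a density of 14, or 9 reads, in 0 of the 75 tiles (an upper limit of 4.87%), compared with 7.46% of all tiles. Its highest count was 6 reads. No H3K4me3 read was found in 44.0% of the 75 tiles, compared with 43.4% of all tiles, and the median density was 1.6 in both. S2 Pol II reached 14, or 14 reads, in 4 tiles (5.33%, 2.09 to 12.9), compared with 11.9% of all tiles, and its median of 3.12 was below that of all tiles, 4.16. S2 RNA was present at 1 read per kb per 1000000 or more, at least 4 reads in the tile, in 11 tiles (14.7%, 8.39 to 24.4), compared with 25.6% of all tiles. No RNA read at all was found in 52 of the 75 tiles (69.3%, 58.2 to 78.6), between the 61.2% of all tiles and the 83.4% of tiles that met the S2 conditions. For Pol II and RNA the shares were nonetheless not lower than in other tiles with H3K27me3 in S2 cells, and the interval for H3K4me3 held their share. Those that met the S2 conditions gave 1.10% (1.01 to 1.19) for S2 Pol II, 0.170% for S2 H3K4me3 and 4.78% for S2 RNA. The intervals for Pol II and RNA at the 75 tiles lay above these values. For Pol II this rested on few tiles, and the share was 1.64% with an active mark of 14 or more, 1.43% and 0.467% with tiles chosen on a single strand, and 1.89% with 1 copy of each read in place of up to 3. For RNA it was 7.14% and 6.08% with tiles chosen on a single strand. In active tiles of testis with S2 H3K27me3 under 7, by comparison, 42.2% were past the threshold for S2 Pol II, 40.2% for S2 H3K4me3 and 88.5% for S2 RNA.

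The tiles with a readout of transcription in S2 cells are few enough to give in full, and were listed after their values were seen. S2 Pol II was 81 reads in 2L 1737501 to 1738000, 35 in X 6101001 to 6101500, 25 in 2L 18675001 to 18675500 and 17 in 3L 5252001 to 5252500, and the remaining 71 tiles had 11 or fewer. The first of the 4 was also the only one with RNA past the threshold, with 12 reads, and it had the highest testis Pol II. That tile had 22 reads of H3K27me3 in S2 cells and 6 in testis, 17 reads of H3K4me3 in testis and 6 in S2 cells. Pol II was thus high in both samples at a tile whose H3K27me3 differed. RNA was also past the threshold in 2R 10866501 to 10867000 with 7 reads, 3L 8203001 to 8203500 with 10, 3L 14407001 to 14407500 with 12, 3R 7593001 to 7593500 with 10, 3R 19091501 to 19092000 with 4 and 3R 23478501 to 23479000 with 8. The other 4 lay in 2 neighbouring pairs, with 4 and 13 reads in 2R 16943001 to 16944000 and with 6 and 7 reads in the tiles from 3R 909501 and 3R 911501. In all, 17 tiles had testis Pol II past the threshold with neither Pol II nor RNA in S2 cells, 8 had testis Pol II with one of these, 6 had only the S2 readouts and 44 had none.

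The 75 tiles formed 69 runs, of which 63 were single tiles and 6 held 2 chosen tiles, 4 of these adjacent and the others with 1 tile between. The run 3R 12753501 to 12754500 had 37 and 36 reads of H3K27me3 in S2 cells and 13 in testis in each tile, a mean density of 26.3 against 6.97. Its testis mark was H3K36me3, at 25.8, and its testis Pol II was 8.94. In S2 cells this run had 1 read of H3K4me3, 3 of Pol II and no RNA read. The run 3R 19091501 to 19092500 had a mean H3K27me3 of 25.5 in S2 cells and 6.17 in testis, with the highest testis H3K36me3 of the 6 runs, 29.9. Testis Pol II was 10 and 6 reads in its tiles, so that 1 of them was past the threshold.

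The other 4 runs differed in their testis mark. In 3R 9937001 to 9938000, H3K4me3 led with a mean of 34.1, beside 16.4 for H3K36me3 and 15.7 for Pol II, and H3K27me3 was 21.9 in S2 cells and 5.90 in testis. In 2R 16943001 to 16944000, H3K4me3 was 23.5 with H3K36me3 at 3.52, and testis Pol II was 19.4. The latter run had 17 RNA reads in S2 cells over its tiles. Its surroundings, the 5 tiles on either side of each member, averaged 46.6 and 48.5 for S2 H3K4me3 and 19.7 and 37.0 for S2 RNA, so it lay next to sequence that was active in S2 cells. The runs 2R 10161001 to 10162500 and 3R 5644501 to 5646000 carried mainly H3K36me3 in testis, at 27.5 and 26.96 over their chosen tiles, and H3K27me3 was 16.6 and 16.2 in S2 cells against 3.75 and 6.44 in testis.

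Single tiles were ordered by the smaller of S2 H3K27me3 and the leading testis mark, and those that led are given. The largest H3K27me3 value in S2 cells was 53 reads (38.1) in 3R 24336501 to 24337000, with 12 reads (6.44) in testis, where H3K36me3 had 23 reads (26.96) and Pol II 3. Near it, 3R 24320001 to 24320500 had 45 reads (32.4) against 9 (4.83), with 22 reads of H3K36me3 and 12 of Pol II in testis. Both were quiet in S2 cells, with 0 and 6 reads of Pol II and 1 and 0 of RNA. The tile 3L 8203001 to 8203500 had 44 reads (31.7) in S2 cells, 13 (6.97) in testis and both active marks there, 24 reads of H3K4me3 and 20 of H3K36me3. Its 10 RNA reads set it apart from most others. The others that led were 2R 10159001 to 10159500 with 35 reads against 8 and 24 of testis H3K36me3, and 3L 7756001 to 7756500 with 34 against 10 and 21 of testis H3K36me3. On the small arm 4, 70501 to 71000 had 33 reads against 13, and 20 reads of testis H3K4me3. On 2L the tiles 6315001 to 6315500 and 15071501 to 15072000 were tied at 31 reads, against 13 and 12. The former had 17 reads of testis H3K4me3 and 4 of Pol II, and the latter 25 of testis H3K36me3 and 16 of Pol II. On X it was the tile with 35 reads of S2 Pol II named above, with 31 reads of H3K27me3 in S2 cells against 6, and 20 reads of S2 H3K36me3 where 21 was the most allowed.

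The neighbourhood of the tiles was then measured. The rule did not use it, except where it held another chosen tile, as in the 6 runs of 2. Such tiles were kept in the means, so the rule fixed part of these values. Over the 5 tiles on either side (2.5 kb), the median H3K27me3 density was 13.1 in S2 cells and 8.21 in testis. In S2 cells this is close to the surroundings of all tiles that met the S2 conditions, 13.8. In testis it was lower than the 10.6 of that set, but close to the 7.45 around all tiles and to the 8.47 around S2 tiles with under 7 in testis and no active mark there. The testis mean reached 14 around 2 of the 75 tiles (2.67%, 0.734 to 9.21), compared with 23.5% of the tiles that met the S2 conditions and 3.51% of those with under 7 in testis and no active mark. The lower testis H3K27me3 of the neighbourhood was thus shared with S2 tiles that had no active mark in testis. The density in S2 cells was above that in testis around 69 of the 75 tiles (92.0%, 83.6 to 96.3), compared with 82.6%, and at least 2 times as high around 21 (28%, 19.1 to 39.0), compared with 5.30%. Tiles with under 7 in testis and no active mark there gave 91.6% and 11.8%. Densities of the 2 samples are scaled to their own totals, so these shares compare sets of tiles and not absolute amounts of the mark.

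The testis marks were measured in the same way. The mean H3K36me3 density in testis was 14 or more around 21 tiles (28%, 19.1 to 39.0), compared with 2.13% of the tiles that met the S2 conditions and 14.5% of all tiles. For H3K4me3 it was 10 tiles (13.3%, 7.41 to 22.8), compared with 1.57% and 9.25%, and for testis Pol II 14 tiles (18.7%, 11.5 to 28.9), compared with 1.73% and 12.9%. Against all tiles, the interval lay above the share for H3K36me3 and held it for H3K4me3 and Pol II. Around all tiles that met the testis conditions the shares were 75.8%, 52.0% and 51.9%. Neighbouring tiles share domains and, at their borders, fragments, so they are not independent of the chosen tile. Some neighbourhoods also held another chosen tile, whose marks the rule required. The shares for H3K36me3 and H3K4me3 therefore count chosen tiles in part. The pattern itself seldom extended far. S2 H3K27me3 of 14 or more with testis H3K27me3 under 7 and an active mark of 14 or more, as means over the neighbourhood, was found around 2 tiles.

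Many of the tiles lay at an end of a short stretch of tiles with S2 H3K27me3 of 14 or more. The unbroken stretch of tiles with 14 or more that held the chosen tile had a median length of 1 kb, from 0.5 to 10 kb, compared with 1.5 kb for tiles that met the S2 conditions, and the tile was the whole stretch in 27 cases (36%), compared with 27.4%. It was at an edge of its stretch in 63 (84.0%, 74.1 to 90.6), compared with 67.8% of all tiles that met the S2 conditions, and inside it in 12. Each tile of a stretch of 0.5 or 1 kb is at an edge by definition, so this share follows the stretch length. The median of S2 H3K27me3 around the 75 tiles, 13.1, was near the limit of 14. Counting error can therefore break a stretch, and an edge need not be a domain border. Median S2 H3K27me3 in the tile was lower in the 75 tiles, 17.3 compared with 19.4, and its part in the difference in edges was not tested. The stretch of testis tiles with an active mark of 14 or more had a median length of 1 kb and a maximum of 5.5 kb. The mean profile had a dip of testis H3K27me3, from 8.68 at 7.5 to 10 kb and 8.01 in the next tile to 5.51 in the tile itself. The rule required the value in the tile. It did not use the next tile, except in the 4 adjacent pairs of chosen tiles, which were kept in the means. In the next tile testis H3K36me3 was 11.95, H3K4me3 11.3 and Pol II 11.2, compared with means over all tiles of 7.76, 7.80 and 7.91. At 7.5 to 10 kb these were 7.86, 8.65 and 8.94, so the excess of active marks was local. In S2 cells H3K27me3 was 14.1 in the next tile and still 10.9 at 7.5 to 10 kb, with a mean over all tiles of 7.99. S2 RNA rose with distance, from 0.395 in the tile and 0.353 next to it to 2.25 at 1 to 2.5 kb and 5.09 at 7.5 to 10 kb, toward the mean of 8.25 over all tiles.

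**Figure D4:**
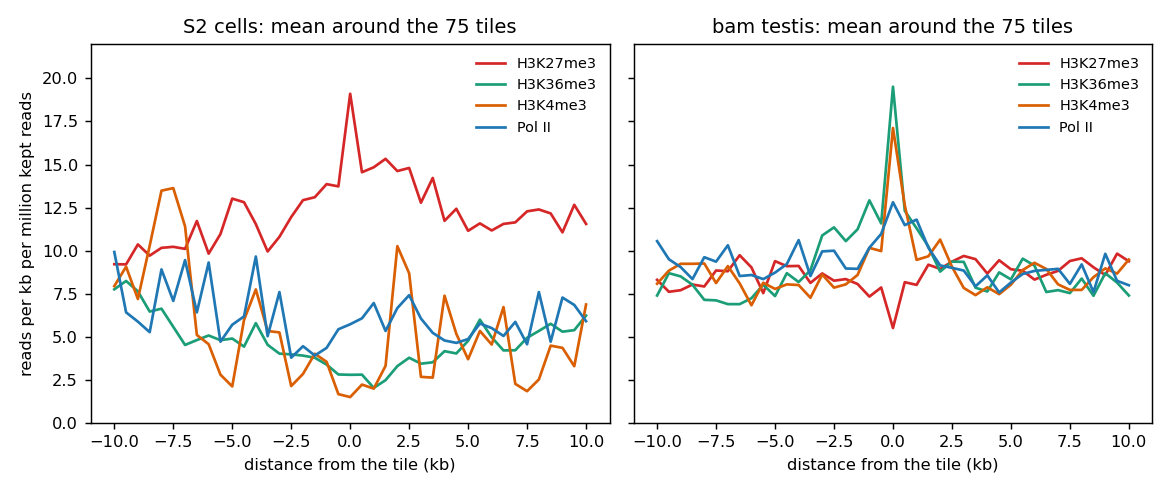
Mean density, in reads per kb per 1000000, against distance from the chosen tile in kb, over the 75 tiles, for S2 cells (left) and *bam* testis (right). The value at 0 was fixed by the rule for all lines except Pol II and S2 H3K4me3; testis H3K36me3, H3K4me3 and Pol II fell from 19.5, 17.1 and 12.8 there to 7.86, 8.65 and 8.94 at 7.5 to 10 kb.

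The surroundings of the 2 kinds of tile were also measured, with adjacent pairs of chosen tiles again kept in the means. Around tiles with H3K36me3 alone, mean testis H3K36me3 was 26.7 in the tile, 14.8 in the next one and 12.02 at 1 to 2.5 kb. Around tiles with H3K4me3 alone, H3K4me3 fell from 27.5 to 13.7 and 9.34 over the same distances, close to the mean of all tiles. Mean testis Pol II was 13.9 next to the H3K4me3 tiles and 8.76 next to the H3K36me3 tiles. It was 9.75 and 9.68 at 1 to 2.5 kb and 8.03 and 9.71 at 7.5 to 10 kb, so the order in the next tile did not extend further. Over the whole neighbourhood of 2.5 kb on either side, the median was 8.72 around the H3K4me3 tiles and 8.05 around the H3K36me3 tiles. S2 H3K27me3 at 1 to 2.5 kb was 11.4 around the former and 15.5 around the latter. Its neighbourhood mean was 14 or more around 6 of the 28 H3K4me3 tiles (21.4%, 10.2 to 39.5) and 22 of the 42 H3K36me3 tiles (52.4%, 37.7 to 66.6), intervals that overlap slightly.

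Linked by distances of at most 20 kb, 26 of the tiles fell into 10 groups, and 49 stood alone. There were 7 groups of 2 tiles, 2 of 3 and 1 of 6. The group of 6 spanned 2R 10159001 to 10188000 (29 kb). Over all of its 58 tiles mean H3K27me3 was 14.4 in S2 cells and 9.96 in testis, and it reached 14 in 28 tiles in S2 cells and in 10 in testis. Testis H3K36me3 averaged 11.98 and reached 14 in 17 of them. S2 RNA averaged 0.0284, and neither S2 Pol II nor S2 H3K4me3 reached 14 in any of the 58. The start of the group was a border in S2 cells. In the 20 kb before it, S2 H3K27me3 was 2.36, S2 H3K36me3 28.6 and S2 RNA 74.9, whereas in the 20 kb after it they were 13.7, 1.08 and 0.00686. Testis H3K36me3 was 20.3 before the group, 11.98 within it and 8.47 after it. Testis H3K27me3 was also lower before the group, 6.77, than within it, 9.96, or after it, 8.90. Testis Pol II was 21.8, 7.09 and 9.05 in the same order. At the border 3 of the 6 tiles lay within 3.5 kb of the start. The last of the 6, with 30 reads of testis H3K36me3, lay in a stretch of 4.5 kb with an active mark in testis.

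**Figure D5:**
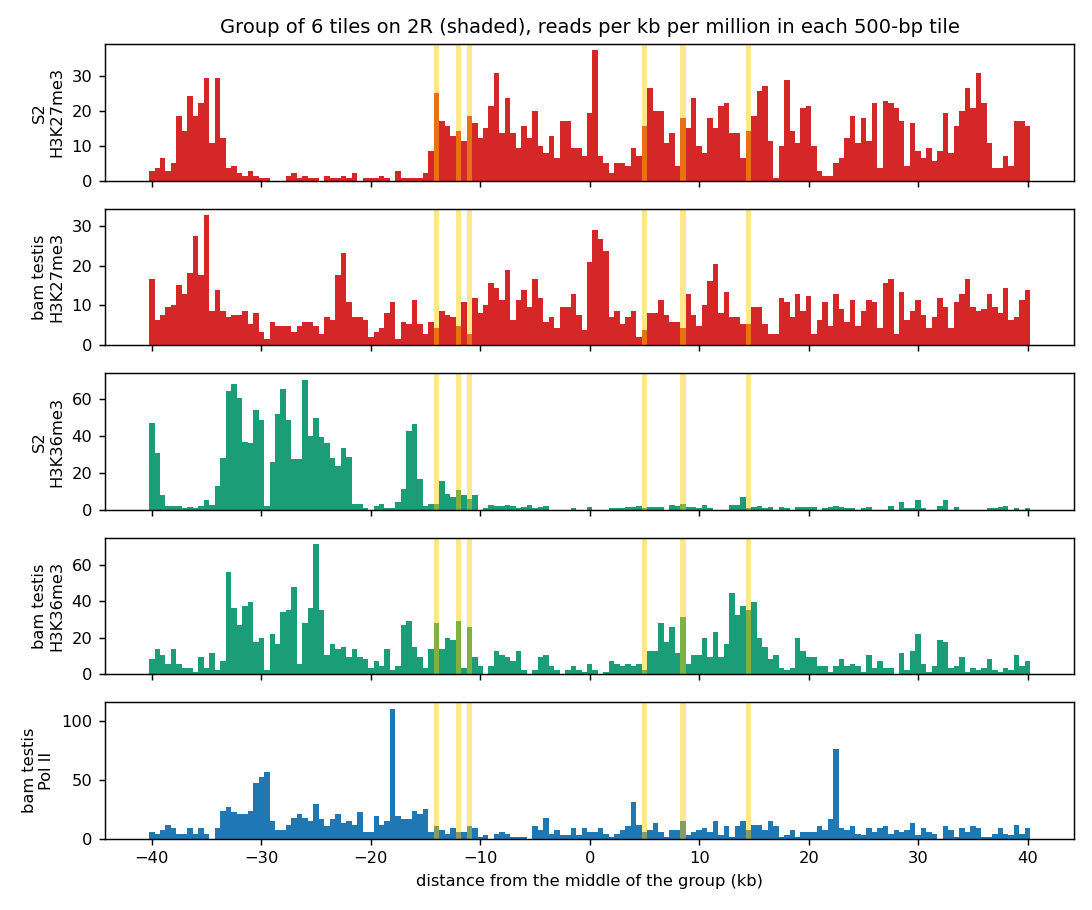
Densities in reads per kb per 1000000 (y axes) in 500-bp tiles along 2R, by distance in kb from the middle of the group of 6 chosen tiles (shaded). In the 20 kb to the left of the group, H3K36me3 averages 28.6 in S2 cells and 20.3 in testis, with low stretches between. Further left lie tiles with H3K27me3 of 14 or more in both samples. Within the group, S2 H3K27me3 averages 14.4 and S2 H3K36me3 2.197. Testis H3K36me3 averages 11.98 there, mostly in stretches around the chosen tiles at either end.

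The other groups were described in the same way over their full spans. In 3R 24320001 to 24337000 (17 kb, 2 chosen tiles), S2 H3K27me3 averaged 22.1 and reached 14 in 27 of 34 tiles, whereas testis H3K27me3 averaged 6.97 and reached 14 in none. Testis H3K36me3 reached 14 in 9 of these tiles and averaged 10.7. In 3L 18596501 to 18610500 (14 kb, 3 chosen tiles), mean H3K27me3 was 12.2 in S2 cells and 6.32 in testis, and testis H3K36me3, H3K4me3 and Pol II averaged 13.9, 11.9 and 12.2. S2 H3K27me3 reached 14 there in 11 of 28 tiles, an active mark in testis in 19 and S2 RNA reached 1 in none. Outside the 3 chosen tiles, mean S2 H3K27me3 was 11.6. In 3R 12745001 to 12754500 (9.5 kb, 3 chosen tiles), testis H3K27me3 averaged 14.8, beside 21.8 in S2 cells. It reached 14 in 7 of 19 tiles in testis and in 14 of 19 in S2 cells. Outside the chosen tiles the testis mean was 16.3, so the chosen tiles were low points of a span marked in part in testis. In 2L 15071501 to 15075000 (3.5 kb), testis H3K36me3 averaged 24.6 and Pol II 25.1, Pol II reached 14 in 7 of 7 tiles, and no S2 RNA read was found. In 3R 909501 to 912000 (2.5 kb), testis H3K4me3 averaged 23.6 and Pol II 26.5, but S2 RNA reached 1 in 5 of 5 tiles. S2 Pol II averaged 4.99 in the group and reached 14 in none of its tiles, whereas it averaged 20.1 and 32.9 in the neighbourhoods of the chosen tiles, which reach beyond the group.

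By arm there were 11 tiles on 2L, 15 on 2R, 21 on 3L, 24 on 3R, 2 on 4 and 2 on X. As a share of the tiles that met the S2 conditions this was 0.109% (0.0609 to 0.195) on 2L, 0.154% on 2R, 0.217% (0.142 to 0.331) on 3L, 0.161% on 3R, 0.645% (0.177 to 2.32) on 4 and 0.0883% (0.0242 to 0.321) on X. All of these intervals overlap. Both tiles on X carried H3K4me3 alone in testis, and X held 2265 of the S2 tiles, 5.05% of its length, compared with 26.7% of 3R. The testis conditions were also met by a smaller share of X, 4.26%, compared with 9.56% of 3R. Densities were not scaled to an input or to the copy number of an arm. These shares are therefore not levels of a mark, and the cause was not tested.

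How far the choice repeats was measured within the libraries, for want of replicates. The rule was applied to reads of the plus strand and the chosen tiles were measured on the minus strand, and the reverse, each at about the depth of a single strand. It chose 210 tiles on the plus strand, of which 9 (4.29%, 2.27 to 7.94) met the whole rule on the other, and 214 on the minus strand, of which 9 (4.21%, 2.23 to 7.80) did. Thus, at this depth, most tiles met the rule on one strand and not on the other. S2 H3K27me3 was again 14 or more in 38.1% and 41.6%, compared with 21.2% of all tiles on either strand and 66.4% of the tiles with 14 or more on the plus strand. Testis H3K27me3 was again under 7 in 49.0% and 52.8%, compared with 17.2% and 17.3% of tiles that met the S2 conditions and 52.6% and 52.4% of all tiles. An active mark in testis again reached 22 in 19.05% (14.3 to 24.9) and 12.6% (8.82 to 17.7), compared with 2.75% and 2.52% of tiles that met the S2 conditions and 12.04% of all tiles. The testis H3K27me3 library holds reads of 25 and 29 bp. Tiles chosen with its 25-bp reads were under 7 with the 29-bp reads in 35 of 87 cases (40.2%, 30.5 to 50.7), and in the reverse direction in 35 of 85 (41.2%, 31.3 to 51.8), compared with 11.2% and 16.6% of tiles that met the S2 conditions and 49.3% and 54.8% of all tiles. Low H3K27me3 and an active mark in testis were thus each found again more often than in tiles that met the S2 conditions. Beside all tiles the order varied. The interval for low H3K27me3 held the share of all tiles in the strand choices and for tiles chosen with 25-bp reads, and lay below it for those chosen with 29-bp reads. That for the active mark lay above the share of all tiles for the plus strand and held it for the minus strand. In most of the tiles the active mark was not found again.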

How the data were processed

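The deposited ChIP-seq files of S2 cells and *bam* testis (H3K4me3, H3K27me3, H3K36me3, Pol II) and of S2 RNA-seq hold 1 read per line, its start, end and strand, with no count or normalization by the authors, so other values in them were read only as positions. For ChIP-seq the authors used ELAND on the dm3 build with at most 2 mismatches and kept unique matches. The RNA-seq aligner is not given in the sources used here. At most 3 copies of a read with the same 5′ end and strand were kept, leaving 1250028 to 3729366 reads per ChIP library and 7289715 for RNA. ChIP 5′ ends were shifted by 80 bp. Tiles of 500 bp were counted and scaled to reads per kb per 1000000 kept reads. A density of 14 or more (RNA: 1 or more) was called present. Shares have Wilson intervals. Polymerase chain reaction copies are not independent molecules. The rule and counts were tested on simulated reads with planted tiles. Recovery was required only at planted densities above 38.1, the highest S2 H3K27me3 of the 75 tiles. The simulation therefore does not speak for values near the limits. Named regions are the 10 runs with the most chosen tiles, the 10 tiles in which the smaller of S2 H3K27me3 and the leading testis mark was largest, and the first of each arm. The rule, regions and lists were chosen with earlier results of these data known. Python 3.11.15, numpy 2.4.6, scipy 1.17.1, pandas 2.3.3 and matplotlib 3.10.9 were used.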

Additional observations from a re-analysis of the deposited data

How the results depend on the processing

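The number of tiles followed its thresholds. It was 7 with testis H3K27me3 under 3.5, 296 with it under 14, 548 with an active mark of 14 or more, 27 with 28 or more and 4 with S2 H3K27me3 of 28 or more. It was 141 with all ChIP libraries thinned to the shallowest, and 210 and 214 with reads of the plus and the minus strand. With 1 copy of each read it was 53, with no shift 67, with tiles moved by 250 bp 84, and with 25-bp or 29-bp reads of testis H3K27me3 alone 87 and 85. The share of tiles with testis Pol II was 22.6% with testis H3K27me3 under 14, 12.4% with an active mark of 14 or more, 18.1% and 15.0% for the plus and minus strands, and 6.67% at a Poisson p under 0.001. The share with S2 Pol II was 1.89% with 1 copy, 28.6% with testis H3K27me3 under 3.5, 1.64% with an active mark of 14 or more, 0% with S2 H3K27me3 of 28 or more, and 1.43% and 0.467% for the strands. The share with S2 RNA was 42.9% with testis H3K27me3 under 3.5, 25.0% with S2 H3K27me3 of 28 or more, 7.14% and 6.08% for the strands and 8% with an RNA minimum of 2. The causes were not tested. S2 H3K4me3 stayed within its interval under 14 of 14 alternatives, from 0% to 3.57%. Of 70 values under alternatives, 46 were within the interval or within 1.5 times the count, and 24 were not. No paired analysis was possible because each sample has 1 library per target.

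Depth limits each value, since 20 reads decide S2 H3K27me3, 13 reads decide testis H3K27me3 and 16 or 19 reads decide the active mark. With 1 library per target, differences between animals, cultures and immunoprecipitations cannot be told apart from those between S2 cells and testis.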
